A study of Mus musculus with 4 samples.

Results

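The 9 transcription factors described here, *Spi1*, *Cebpa*, *Cebpb*, *Irf8*, *Maf*, *Mef2a*, *Mef2c*, *Zeb2* and *Bhlhe40*, were taken by gene symbol from a table of 18364 genes, and all 9 were in it. The rule took their names as factors known to set or hold macrophage identity and used none of their values. The table held bulk RNA-seq of large peritoneal macrophages (LPMs), which reside in the peritoneal cavity, from 8-week-old C57BL/6 mice. The groups were 2 libraries labelled WT and 2 libraries labelled Rxra-KO. *Rxra* encodes RXRα, a nuclear receptor that pairs with other nuclear receptors on DNA. In the study, *Rxra* fl/fl mice carried a Cre recombinase driven from the *Lyz2* (LysM) locus, which is active in myeloid cells and not only in LPMs, and the controls were *Rxra* fl/fl littermates without Cre. LPMs were sorted by high F4/80, CD102 (encoded by *Icam2*) and lack of MHC class II. Nothing in the labels says whether each library came from its own mouse, so p-values measure only the spread between these libraries. All values below are normalised read counts, in which a single read was worth 1.51, 1.08, 1.51 and 0.993 in WT replicates 1 and 2 and Rxra-KO replicates 1 and 2.

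Macrophage identity is built in layers. PU.1 (*Spi1*), an ETS factor, opens macrophage enhancers together with C/EBPα and C/EBPβ, and IRF8 binds DNA with PU.1 and steers progenitors towards monocytes. MAF helps to hold differentiated macrophages out of the cell cycle and is tied to the programme of vessel-associated resident macrophages. MEF2 factors act with histone deacetylases in muscle, neurons and myeloid cells. ZEB2 maintains the identity of tissue macrophages by repression at E-box sequences, and BHLHE40 is a repressor that is needed for the self-renewal of LPMs.

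Depth ranged from 629030 to 1047021 recovered reads per library. The libraries labelled Rxra-KO did not have less *Rxra* message: 20 and 28 reads were found in WT against 33 and 77 in Rxra-KO, for a log2 change of 0.99 (limma adjusted p = 0.183). Reads over the whole gene cannot show whether a deleted part is missing, so the 2 libraries are called by their label throughout. LPM markers were present in every library but lower under the Rxra-KO label. Their summed value was 37147 and 38641 in WT versus 18554 and 20088 in Rxra-KO, and 11 of 13 passed the test, all of them lower. Not all of these calls held without each library in turn. The log2 fold change of *Gata6* was -2.32, and it ran from -3.32 without Rxra-KO replicate 2 to -1.31 without Rxra-KO replicate 1, where its call was lost. With all 4 libraries DESeq2 gave *Gata6* an adjusted p of 0.0470. The log2 fold change of *Icam2* was -1.25, from -1.38 without WT replicate 1 to -1.12 without WT replicate 2. Of 10 markers of small peritoneal macrophages and monocytes, 6 passed, all higher, and the summed value went from 422 and 216 in WT to 4321 and 5844 in Rxra-KO. Among dendritic cell, B cell, T cell, mast cell and neutrophil markers, 2 of 27 were called, *Cd209a*, which was lost without Rxra-KO replicate 2, and *Cd2*, which was lost without any one of the 4 libraries. Of 7 proliferation genes 4 were called, all lower, with a summed value of 695 and 1507 in WT versus 310 and 258 in Rxra-KO. Without WT replicate 2 and by DESeq2 1 of them was called, *Mki67*, and without Rxra-KO replicate 2 the number was 2. Since the RNA is bulk, fewer cells of a type and less RNA per cell cannot be told apart, and the part of these markers in any result below was not tested.

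Among the 9 factors, *Maf* and *Mef2c* rose in the libraries labelled Rxra-KO and the other 7 did not pass the test. A gene was called at a limma adjusted p under 0.05 over all 18364 genes with a log2 fold change of 0.6 or more in either direction. This was met by 2 of 9 members (22.2%) against 2.29% of all genes, and both were higher, against 1.32% of all genes called higher and 0.969% called lower. Calls depended on depth: 9.88% of the 2843 genes with a mean of at least 50 reads were called and 0.902% of the others, and 5 of the 9 factors had at least 50. The values of the groups did not overlap for 6 of 9 members (66.7%), 4 higher and 2 lower in Rxra-KO, beside 38.1% of all genes. The median log2 fold change of the 9 was 0.10 and that of all genes was 0.02.

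**Figure D1:**
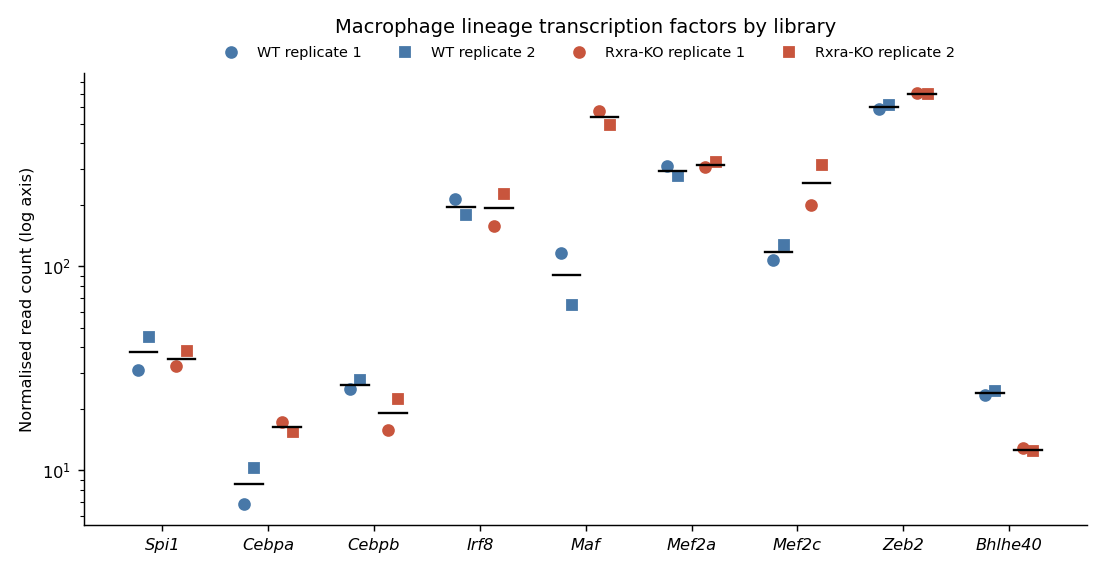
Normalised read count (log axis) of each of the 9 factors in the 4 libraries, with blue for WT, red for Rxra-KO, circles for replicate 1, squares for replicate 2 and a bar at each group mean. *Maf* stands at 116 and 64.5 in WT and at 579 and 493 in Rxra-KO, while *Spi1*, *Mef2a* and *Irf8* overlap between the groups.

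The promoter of *Mef2c* was the one among those examined that held the nuclear receptor half-site AGGTCA, the motif of the class of receptors that includes RXRα, and its upstream windows are shown for that reason. RefSeq (GRCm38.p6) windows of 300 bases around annotated starts were at hand for 6 members, with 12 windows in all. *Maf*, *Spi1* and *Bhlhe40* had no window and were not searched. The windows were uneven, with 4 for *Zeb2*, 3 for *Mef2c*, 2 for *Irf8* and 1 each for *Mef2a*, *Cebpa* and *Cebpb*. The remaining *Mef2c* window had no half-site. The 2 *Mef2c* windows with a match lie on chromosome 13, plus strand, and are printed from 5′ to 3′ as the bases upstream of the start, with the half-site in capitals. It appears as TGACCT because all 3 matches are on the minus strand.
Mef2c chr13:83573357-83573606: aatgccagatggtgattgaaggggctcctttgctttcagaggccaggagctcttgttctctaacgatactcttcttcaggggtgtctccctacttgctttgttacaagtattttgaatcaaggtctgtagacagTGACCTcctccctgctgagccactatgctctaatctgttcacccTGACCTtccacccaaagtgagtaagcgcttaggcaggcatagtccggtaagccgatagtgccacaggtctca
Mef2c chr13:83523406-83523655: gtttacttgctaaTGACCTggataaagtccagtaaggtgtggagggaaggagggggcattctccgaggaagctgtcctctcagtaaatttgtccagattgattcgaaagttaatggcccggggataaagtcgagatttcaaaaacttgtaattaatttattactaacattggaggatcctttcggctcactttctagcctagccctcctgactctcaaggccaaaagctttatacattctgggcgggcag

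In the first window the matches begin 116 and 72 bases before the annotated start and in the second 237 bases before it. The half-site was present on either strand in 16.3% of 32851 such windows, beside 2 of the 12 member windows (no enrichment was tested), and nothing here shows whether a receptor binds there. The E-box CACGTG (7.15% of all windows), the PU.1 box GAGGAAGT (3.20%) and the core of the interferon-stimulated response element (3.44%) had no match in the 12 windows. The MAF core site TGCTGA (19.5%) was in 1 window each of *Irf8* and *Mef2c*, the MEF2 box, CTA and TAG with 4 bases between them (3.69%), in the *Mef2a* window, the C/EBP box TTGCNNAA (10.8%) in a *Zeb2* window and the ZEB box CAGGTG (20.2%) in an *Irf8* window. All were searched on both strands, and no 2 matches overlapped.

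PU.1, the factor at the base of the macrophage programme, was present at a modest level that did not pass the test between groups. *Spi1* had 20 and 41 reads in WT (values 31.0 and 45.0) versus 21 and 38 reads in Rxra-KO (32.4 and 38.2). The WT libraries enclosed both Rxra-KO libraries, and the log2 fold change was -0.09 with a 95% interval from -0.85 to 0.68 (limma adjusted p = 0.986). The interval is wide at this depth, and a change within it either way could not be seen. Of the 14 other ETS genes in the table limma, edgeR and DESeq2 called 0, and 1 had an unadjusted limma p under 0.05. *Fli1*, the ETS gene with the highest mean value, stood at 281 and 274 in WT and at 231 and 256 in Rxra-KO (log2 fold change -0.19, limma adjusted p = 0.906). *Ets2* had 28 and 51 reads in WT versus 76 and 78 in Rxra-KO, with both Rxra-KO libraries above WT (0.93, limma adjusted p = 0.115). *Spib*, *Elf1*, *Elf2*, *Elf4*, *Gabpa*, *Etv3*, *Etv6* and *Elk3* had log2 fold changes from -0.00 (*Elk3*) to 0.92 (*Elf4*).

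The messages of genes that PU.1 is known to activate did not move as a block. Of 21 such genes, 5 were called, 2 higher and 3 lower, with a median log2 fold change of -0.37. *Mrc1*, the mannose receptor CD206, which is also a marker of small peritoneal macrophages, had 63 and 25 reads in WT versus 671 and 744 in Rxra-KO (4.04 ± 0.26 SE, limma adjusted p = 2.18e-34). *Tlr4*, the endotoxin receptor, had 47 and 69 reads against 88 and 163 (0.99 ± 0.28, limma adjusted p = 0.0287). *Itgam*, which encodes CD11b, fell from 2393 and 4179 reads to 933 and 2116 (-1.24 ± 0.22, limma adjusted p = 8.60e-06). The lysosomal protein gene *Laptm5* fell by 0.97 on the log2 scale (limma adjusted p = 0.00239), and lysozyme *Lyz2*, whose locus carries the Cre, fell by 1.03 (limma adjusted p = 0.00163). *Csf1r*, the receptor for the growth factor that macrophages need to live, had 900 and 978 reads in WT versus 965 and 1648 in Rxra-KO (0.36, limma adjusted p = 0.620). The leukocyte antigen *Ptprc* (0.18) and cathepsin S, *Ctss* (-0.37), also missed the threshold. *Mrc1* and *Itgam* stayed called without each library in turn, and *Mrc1* ranged from 3.16 without WT replicate 2 to 4.92 without WT replicate 1. *Tlr4* was lost without any one of the 4 libraries (log2 fold change 0.85 to 1.13) and by DESeq2 (adjusted p = 0.119). *Laptm5* was lost without WT replicate 2 (-0.77) or Rxra-KO replicate 1 (-0.79), and *Lyz2* without WT replicate 1 (-0.88) or WT replicate 2 (-1.18).

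The C/EBP factors were among the shallowest of the 9. *Cebpa*, which drives progenitors into the myeloid lineage, had 4 and 9 reads in WT (values 6.81 and 10.3) versus 11 and 15 reads in Rxra-KO (17.3 and 15.4). *Cebpb*, which supports the survival and activation of macrophages, had 16 and 25 reads in WT (25.0 and 27.7) and 10 and 22 in Rxra-KO (15.8 and 22.3). Both Rxra-KO libraries were above WT for *Cebpa* and below WT for *Cebpb*, but neither difference passed the test. The log2 fold change was 0.88 for *Cebpa* (95% interval -0.33 to 2.10, limma adjusted p = 0.721) and -0.46 for *Cebpb* (-1.39 to 0.47, limma adjusted p = 0.863). *Cebpa* took 20% and 26.5% of the reads of the pair in WT versus 52.4% and 40.5% in Rxra-KO. The read numbers are small, and the Wilson 95% intervals of these shares overlapped.

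Among the relatives and regulators of the C/EBP factors, 2 of 6 in the table were called. *Cebpd*, a relative induced in acute responses, rose from 31 and 25 reads (values 47.7 and 27.7) to 66 and 112 (100 and 112), for a log2 change of 1.51 ± 0.33 SE (limma adjusted p = 0.000608). Leaving out WT replicate 2 gave 1.13 (limma adjusted p = 0.122) and without Rxra-KO replicate 2 it was 1.44 (limma adjusted p = 0.0559). *Trib2*, a pseudokinase that leads C/EBPα to degradation, fell from 13 and 37 reads to 1 and 3. Over the summed reads the value was 13.2-fold higher in WT, with an exact counting interval from 4.85 to 50.3. The log2 fold change of *Trib2* by limma was -2.97 ± 0.67 SE (limma adjusted p = 0.00120). Without WT replicate 2 it was -2.49 and the call was lost. DESeq2 gave no adjusted p for *Trib2*. *Rfwd2*, the ubiquitin ligase COP1 that works with Tribbles proteins, and *Trib1* were not called (0.46 and -0.04). *Cebpg* and *Ddit3*, the remaining relatives with a mean value of at least 10, gave 0.19 and 0.56 and were not called.

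*Irf8* was well covered and overlapped between groups, with 141 and 163 reads in WT (values 214 and 177) versus 104 and 228 in Rxra-KO (157 and 227). For *Irf8* the log2 fold change was -0.04 with a 95% interval from -0.54 to 0.45 (limma adjusted p = 0.987). The Rxra-KO libraries lay at either end of the 4. Around it, 2 of 10 IRF relatives and partners were called, in opposite directions. *Irf4*, a relative that also pairs with PU.1 and is linked to alternative activation, rose from 12 and 19 reads (values 18.9 and 21.2) to 41 and 58 (62.5 and 58.1), for a log2 change of 1.54 ± 0.39 SE (limma adjusted p = 0.00756). The study named *Irf4*, in these same libraries, among the higher genes that are usually confined to small peritoneal macrophages. Its direction here is thus not independent evidence. *Irf4* took 7.84% and 10.4% of the reads of *Irf4* and *Irf8* together in WT versus 28.3% and 20.3% in Rxra-KO, and the Wilson intervals of the groups did not overlap. The call on *Irf4* was lost without Rxra-KO replicate 1 (1.49, limma adjusted p = 0.235) or replicate 2 (1.60, limma adjusted p = 0.122), and DESeq2 gave an adjusted p of 0.105.

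*Irf1*, the interferon-induced activator, was called lower at 87 and 313 reads in WT against 58 and 99 in Rxra-KO (-1.18 ± 0.27 SE, limma adjusted p = 0.00188). WT replicate 2 stood apart, with a value of 340 beside 132 in WT replicate 1. Without that library the log2 fold change was -0.50 (limma adjusted p = 0.790). The summed value of 5 MHC class II genes was also highest there, at 2778 against 394 in WT replicate 1 and 188 and 707 in Rxra-KO; its part in the *Irf1* result was not tested. *Irf5* (0.12), *Irf3* (0.06), *Irf2* (-0.05), *Irf9* (0.54), *Batf* (-0.31) and *Batf3* (0.92) were not called.

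*Maf* was the largest change among the 9 factors. It had 76 and 59 reads in WT (values 116 and 64.5) versus 384 and 496 reads in Rxra-KO (579 and 493). Both Rxra-KO libraries were above both WT libraries by several-fold. The mean value went from 90.2 ± 36.3 (SD, n = 2) to 536 ± 60.7 (SD, n = 2), a 5.94-fold difference of means, with a log2 fold change of 2.61 ± 0.25 SE (95% interval 2.12 to 3.10, limma adjusted p = 1.69e-18). This difference was higher than that of 99.8% of all genes. It stayed between 2.20 and 3.03 without each library in turn, with limma adjusted p from 1.88e-19 to 4.22e-10. edgeR gave 2.60 (adjusted p = 8.90e-20) and DESeq2 2.58 (adjusted p = 6.90e-14).

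Limma, edgeR and DESeq2 called 0 of the 7 MAF relatives and partners, and 2 had an unadjusted limma p under 0.05. The small MAF gene *Mafg* stood at 184 and 136 against 112 and 145 (-0.31). *Nfe2*, which pairs with small MAF proteins, was below WT in both Rxra-KO libraries, with 84 and 123 reads against 33 and 100 (-0.87, limma adjusted p = 0.102). *Bach1* (0.23) and *Bach2* (0.01) overlapped between groups.

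**Figure D2:**
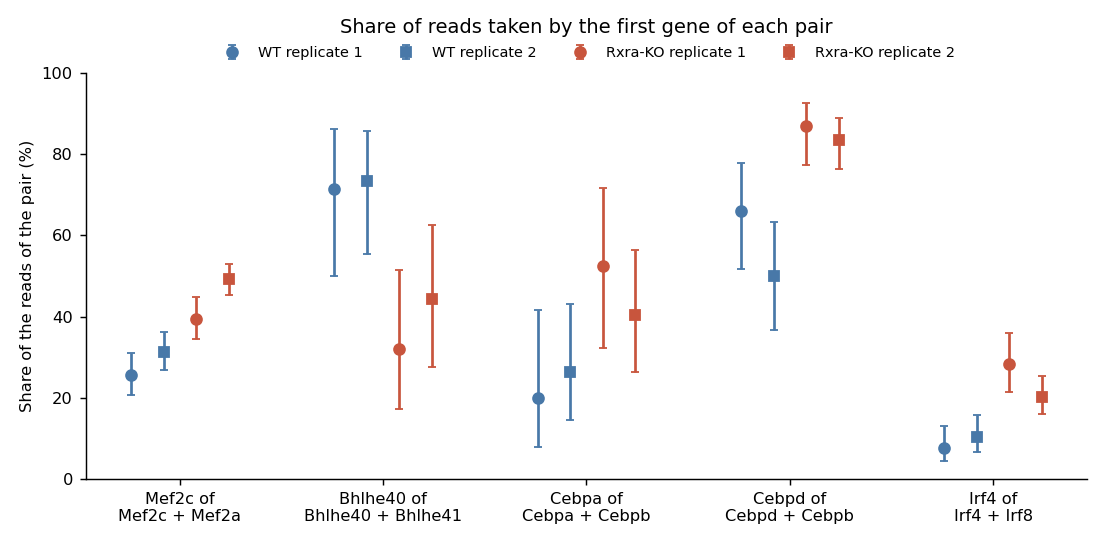
Share of the reads (%) taken by the first gene of each pair in the 4 libraries, with Wilson 95% intervals that cover counting error only, in blue for WT and red for Rxra-KO. *Irf4* took at most 10.4% of the reads of *Irf4* and *Irf8* in WT and at least 20.3% in Rxra-KO. Shares are of reads and are not corrected for gene length.

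Genes known as targets of MAF family factors in macrophages moved in both directions. Of 7 measured, 4 were called, 2 higher and 2 lower, and the median log2 fold change was 0.51. The scavenger receptor gene *Cd163* had 30 and 34 reads in WT versus 1036 and 761 in Rxra-KO, for a log2 change of 4.67 ± 0.25 SE (limma adjusted p = 2.55e-44). *Lyve1*, a hyaluronan receptor of vessel-associated macrophages, had 52 and 10 reads against 736 and 851, for a log2 change of 4.94 ± 0.28 SE (limma adjusted p = 2.74e-40). Both were called without each library in turn, and *Lyve1* ranged from 3.59 without WT replicate 2 to 6.29 without WT replicate 1. The complement genes *C1qa* (0.92), *C1qb* (0.51) and *C1qc* (0.19) had both Rxra-KO libraries above WT and were not called (limma adjusted p = 0.207, 0.315 and 0.895).

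Lower in Rxra-KO were *Cd5l*, a secreted protein of resident macrophages, at 1642 and 2118 reads against 670 and 1634 (-0.90, limma adjusted p = 0.00346), and the F4/80 gene *Adgre1*, listed under its older symbol *Emr1*, at 471 and 502 reads against 268 and 280 (-0.89, limma adjusted p = 0.00692). *Adgre1* is also one of the 13 LPM markers, of which 11 were called lower. *Cd5l* was lost without WT replicate 1 (-0.84), WT replicate 2 (-0.96) or Rxra-KO replicate 1 (-0.56), where the 4-library value was -0.90. *Adgre1* was lost without WT replicate 1 (-0.70) or Rxra-KO replicate 2 (-0.62).

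**Figure D3:**
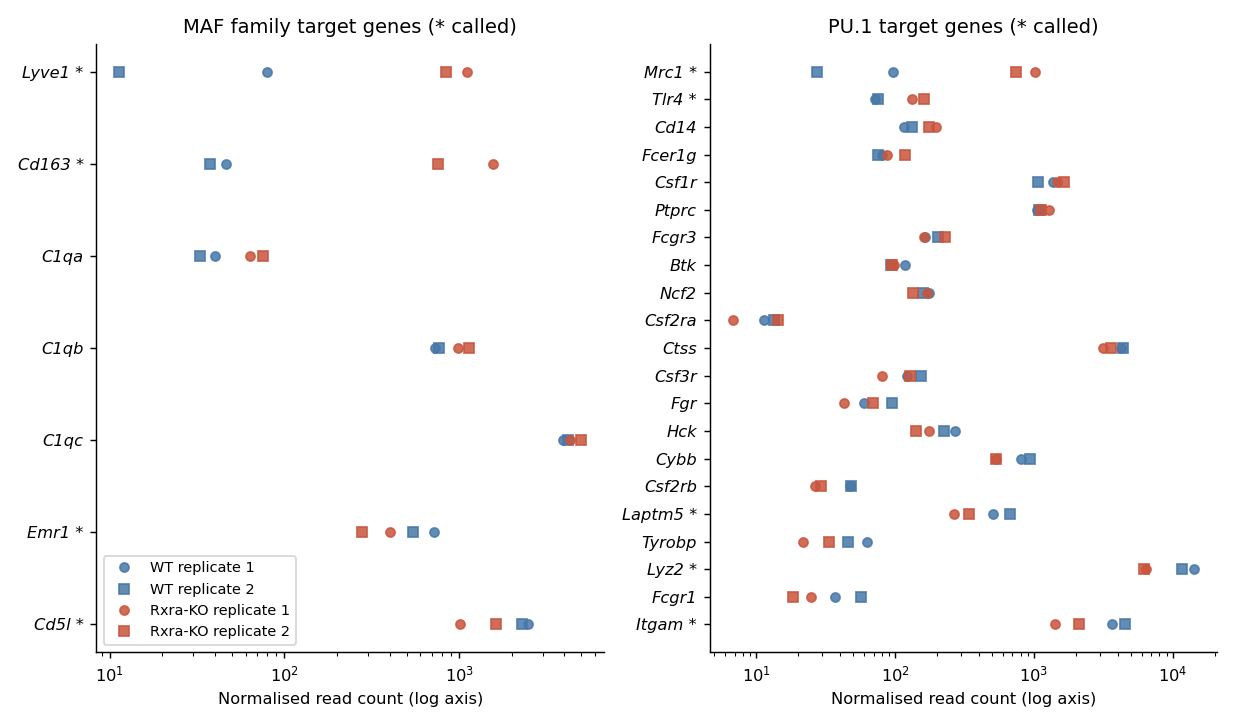
Normalised read count (log axis) of genes known as targets of MAF family factors (left) and of PU.1 (right) in the 4 libraries, ordered by log2 fold change, with called genes starred. *Lyve1*, *Cd163* and *Mrc1* stand far to the right in Rxra-KO, while most PU.1 targets lie close together in the 4 libraries or lower in Rxra-KO.

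*Marcks* and *Rnf150* were among the 3 genes closest to *Maf* in pattern. Likeness was the Euclidean distance between log2 profiles over the 4 libraries, each centred on its own mean, among 10049 genes with a mean value of at least 10. *Marcks*, which encodes a substrate of protein kinase C at the membrane, was at a distance of 0.319 with 63 and 39 reads in WT versus 239 and 324 in Rxra-KO. *Rnf150* was at 0.381, with 17 and 11 reads against 66 and 83. The pattern of *Maf*, lower in WT replicate 2 than in WT replicate 1 and high in both Rxra-KO libraries, was shared within a distance of 0.5 by 5 genes.

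Of the MEF2 factors, *Mef2c* passed the test and *Mef2a* did not, and the difference between the 2 was not tested. The study singled out *Mef2c* in these same libraries as a gene linked to cell death, so its direction here is not independent evidence. Beside the libraries, the study set qPCR of apoptosis-associated genes in LPMs of other mice, with *Rxra* and *Rxrb* both deleted. Those qPCR values were not examined here. *Mef2c* had 70 and 117 reads in WT (values 107 and 127). In Rxra-KO it had 132 and 314 reads (199 and 312), so both libraries were above WT and replicate 2 was the highest. The mean went from 117 ± 14.7 (SD, n = 2) to 256 ± 79.8 (SD, n = 2), with a log2 fold change of 1.09 ± 0.26 SE (95% interval 0.59 to 1.60, limma adjusted p = 0.00251). The call was lost without either of 2 libraries. Without Rxra-KO replicate 2 the log2 fold change was 0.77 (limma adjusted p = 0.390), and leaving out WT replicate 1 gave 0.96 (limma adjusted p = 0.0979). With all 4 libraries, edgeR gave 1.13 (adjusted p = 0.00140) and DESeq2 1.11 (adjusted p = 0.0221).

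*Mef2a*, the MEF2 factor with the most reads in WT, overlapped between groups. It had 203 and 255 reads in WT (values 308 and 277) versus 202 and 324 in Rxra-KO (305 and 322). The log2 fold change was 0.10 with a 95% interval from -0.36 to 0.56 (limma adjusted p = 0.965). *Mef2c* took 25.6% and 31.5% of the reads of *Mef2c* and *Mef2a* in WT versus 39.5% and 49.2% in Rxra-KO, and the highest WT interval overlapped the lowest of Rxra-KO. *Mef2d* had few reads, 8 and 13 in WT against 7 and 23 in Rxra-KO (0.23, limma adjusted p = 0.968). Of the 7 MEF2 relatives and regulators limma, edgeR and DESeq2 called 0, and 0 had an unadjusted limma p under 0.05. Among them were the deacetylases *Hdac9* (-0.41), *Hdac4* (-0.28) and *Hdac5* (0.34) and the kinase *Mapk14* (0.42), which phosphorylates MEF2 proteins, with limma adjusted p from 0.714 to 0.927.

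*Mef2c* had 172 genes within a distance of 0.5. Profiles were centred but not scaled, so this count also depends on the size of the change and cannot be compared with that of *Maf*. The genes closest to *Mef2c* were *Tmem57* (0.0763), the cathepsin L gene *Ctsl* (0.0857) and *Fut7* (0.102). *Ctsl* had 456 and 701 reads in WT versus 810 and 1904 in Rxra-KO, and it was called as well (1.07, limma adjusted p = 0.000192). *Tmem57* and *Fut7* were not, with 11 to 52 and 6 to 32 reads per library.

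*Zeb2* had the most reads of the 9. It had 389 and 567 reads in WT (values 590 and 616) versus 466 and 702 in Rxra-KO (702 and 698). Both Rxra-KO libraries were above WT, but by 1.16-fold between means, and the log2 fold change of 0.22 (95% interval -0.21 to 0.65) did not pass (limma adjusted p = 0.860). The antisense gene *Zeb2os* overlaps it, with 19 and 29 reads in WT versus 7 and 27 in Rxra-KO, and the kit does not mark strand, so reads of the pair cannot be told apart. *Zeb1*, the relative, had 6 and 34 reads against 16 and 27 (0.41). Of the 8 relatives and partners in the table limma, edgeR and DESeq2 called 0, and 1 had an unadjusted limma p under 0.05. *Tcf4*, an E protein with binding sites close to those of ZEB2, had 45 and 66 reads against 94 and 120, with both Rxra-KO libraries higher (0.88, limma adjusted p = 0.0920), and *Tcf12* (0.69), *Ctbp2* (0.34) and *Id2* (-0.37) were further from the threshold.

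*Bhlhe40* was lower in both Rxra-KO libraries, though few reads stood behind it. It had 15 and 22 reads in WT (values 23.5 and 24.4) versus 8 and 12 reads in Rxra-KO (12.8 and 12.4), and the libraries of each group were close to each other. The means of 23.9 and 12.6 differed 1.90-fold, with a log2 fold change of -0.87 (95% interval -1.90 to 0.16, limma adjusted p = 0.620). Without each library in turn the log2 fold change stayed between -0.90 and -0.85, and it was never called. The overlapping antisense gene 0610040F04Rik had 3 and 15 reads in WT versus 5 and 6 in Rxra-KO.

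The paralog *Bhlhe41*, which shares functions with it in alveolar macrophages, had 6 and 8 reads in WT versus 17 and 15 in Rxra-KO (1.01, 95% interval -0.13 to 2.15, limma adjusted p = 0.591). *Bhlhe40* thus took 71.4% and 73.3% of the reads of the pair in WT versus 32.0% and 44.4% in Rxra-KO, with Wilson intervals that overlapped. BHLHE40 is also a repressor within the circadian clock. Of 12 relatives and clock genes, 1 was called. *Arntl*, which encodes the clock activator BMAL1, rose from 12 and 17 reads (values 18.9 and 19.0) to 58 and 62 (88.1 and 62.1), for a log2 change of 1.91 ± 0.38 SE (limma adjusted p = 0.000151). Without Rxra-KO replicate 1 it was 1.66 (limma adjusted p = 0.124). Its partner *Clock* had 89 and 139 reads against 163 and 206, with both Rxra-KO libraries above WT (0.65, limma adjusted p = 0.244), and *Per3* (-0.13), *Per2* (0.03) and *Cry2* (0.90) were not called.

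**Figure D4:**
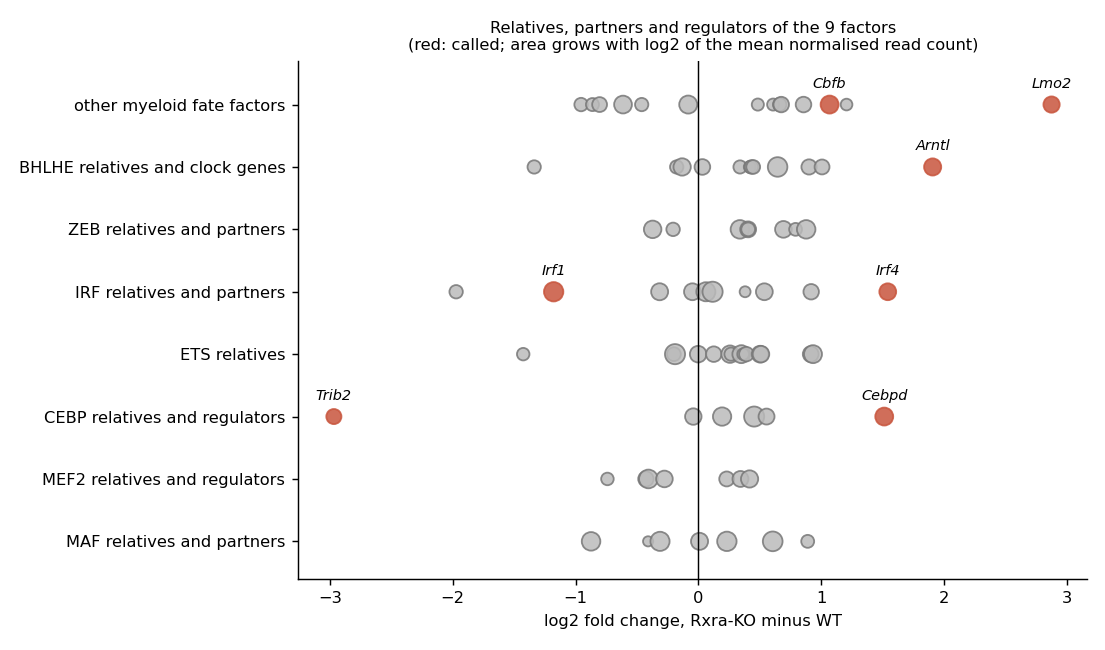
Log2 fold change, Rxra-KO minus WT, of 78 relatives, partners and regulators of the 9 factors, by list, with called genes in red and named and all others in grey. The 7 called genes run from -2.97 for *Trib2* to 2.88 for *Lmo2*, and none is in the MAF, MEF2, ETS or ZEB lists.

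Over the 8 lists of relatives, partners and other myeloid fate factors, 78 of 85 genes were in the table and 7 were called (8.97%), 5 higher and 2 lower. The median log2 fold change was 0.34, with 50 positive and 28 negative, and 25 of the 78 had a mean under 10 reads. Among 14 other myeloid fate factors, *Lmo2*, a bridging factor of blood stem cells, rose from 3 and 6 reads to 43 and 40 (2.88 ± 0.51 SE, limma adjusted p = 1.05e-05). *Cbfb*, the partner of RUNX factors, rose from 28 and 47 reads to 57 and 116 (1.07 ± 0.32 SE, limma adjusted p = 0.0383). *Ikzf1* (-0.08), *Tfe3* (-0.61), *Runx1* (0.86) and *Mitf* (0.68) were not called. None of the 7 called genes held its call without each library in turn: *Lmo2* was lost without Rxra-KO replicate 1 (2.53, limma adjusted p = 0.0709), and *Cbfb* without any one of the 4 (0.86 to 1.28) and by DESeq2 (adjusted p = 0.194).

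Levels of different genes were set side by side per kilobase of transcript, and the order depended on the transcript taken. With the longest principal transcript of each gene (GENCODE M21), *Mef2a* led in WT (110 per kilobase), followed by *Irf8* (68.8), *Zeb2* (66.1), *Mef2c* (45.2), *Spi1* (18.7), *Cebpb* (17.5), *Maf* (14.2), *Bhlhe40* (7.69) and *Cebpa* (3.26). In Rxra-KO the order by the same transcripts was *Mef2a* (118), *Mef2c* (98.9), *Maf* (84.3), *Zeb2* (76.7), *Irf8* (67.5), *Spi1* (17.4), *Cebpb* (12.7), *Cebpa* (6.23) and *Bhlhe40* (4.05). The principal transcripts of *Zeb2* run from 4020 to 9124 bases. With the shortest one *Zeb2* stood at 149.9 in WT and 174 in Rxra-KO and came first in both groups, ahead of *Mef2a* at 118 and 127 with its own shortest. In the same way *Irf8* stood at 86.3 in WT and 84.6 in Rxra-KO, so that *Maf* came in the fifth place in Rxra-KO rather than the third. The libraries of *Spi1*, *Cebpb* and *Maf*, each with a single principal transcript, overlapped in WT, and those of *Mef2c* and *Maf* overlapped in Rxra-KO.

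**Figure D5:**
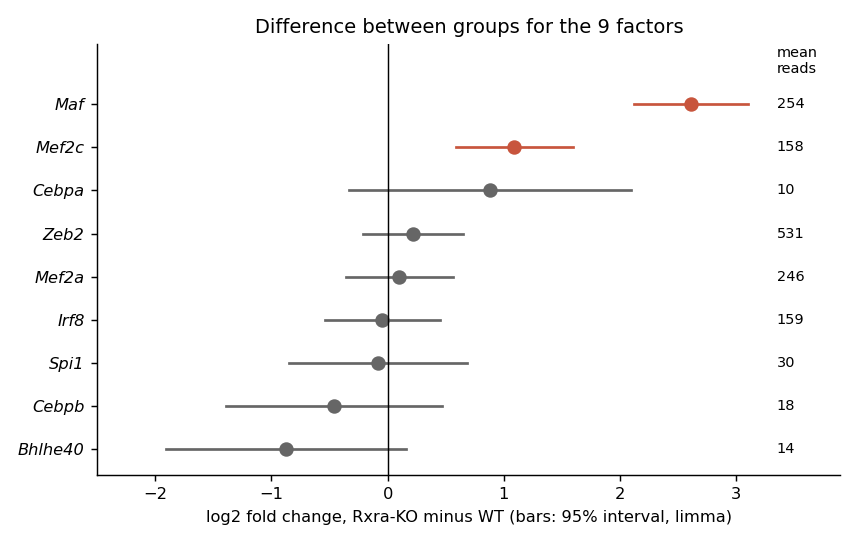
Log2 fold change, Rxra-KO minus WT, of the 9 factors with limma 95% intervals, in red where called and grey where not, and the mean reads per library at the right. *Maf* (2.61) and *Mef2c* (1.09) lie clear of 0, and the intervals of the 7 others include 0.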

How the data were processed

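RNA was sequenced from LPMs that were sorted in 2 rounds. Per the labels and methods of the study, the authors made libraries by SMART-Seq v4 for ultra low input, without strand or molecular identifiers, quantified them with Kallisto (0.43.0), summarised transcripts with tximport and scaled by TMM. The deposited values are a normalised read signal, with no coordinates. Each value was a whole number of reads plus 0.5, times a fixed step, so 100% of values gave whole reads (tolerance 0.001), and TMM with voom on those reads returned the table to within 4.59e-06. The methods name GRCh38, a human build, for these mouse libraries, and which reference gave the reads was not settled. The study left out samples that did not group with their condition. Titles number the libraries 1 and 2, and columns 2 and 3; the titles were followed.

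Genes were fitted with limma 3.58.1 (R 4.3.3) with a mean-variance trend on log2(value + 1), a scale that understates changes of low genes, over 4 libraries with no covariate, two-sided, and p-values were adjusted by Benjamini-Hochberg across all 18364. The design allowed for counts too, and limma was used because the values are normalised. With 2 against 2, an exact permutation test cannot go below 0.333, so each adjusted p rests on 227 prior against 2 residual degrees of freedom. edgeR 4.0.16 and DESeq2 1.42.0 were run on the recovered reads as alternatives, beside other pseudocounts, filters, scalings, no trend, a replicate block and each library left out. The scripts were tested on simulated data. The floor was set at 3 reads per library. Reads without identifiers are not independent molecules, so intervals on reads cover counting error only.

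The members and lists were chosen with earlier results of these data known. The text names the 9 members, all called list genes, list genes of a member's own DNA-binding family with a mean value of at least 10, up to 4 (relatives) or 3 (targets) further list genes by mean value, and the 3 nearest patterns of each called member. Some items that this rule names are not reported here. Besides *Zeb2* and *Bhlhe40*, *Mef2a* overlaps *Lysmd4* and *Cebpb* overlaps *Tmem189* on the opposite strand (GENCODE M21), and their reads cannot be told apart. The symbol *Adgre1* was matched through RefSeq synonyms.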

Additional observations from a re-analysis of the deposited data

How the results depend on the processing

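*Maf*, *Mef2a*, *Mef2c*, *Cebpa*, *Cebpb*, *Zeb2* and *Bhlhe40* kept their direction in all 14 alternatives. The limma fits with a filter on low values, without one and without a trend used the same log2 values as the main fit. Their fold changes could therefore not differ from the main ones. *Spi1* turned from -0.09 to 0.18 without WT replicate 2 and to 0.03 without Rxra-KO replicate 1, and *Irf8* from -0.04 to 0.09 without WT replicate 1 and to 0.22 without Rxra-KO replicate 1 (ranges -0.35 to 0.18 and -0.31 to 0.22 without each library), and neither was called in any. Without a trend limma called 0 genes in every list and 0 of 18364, where 1579 genes and 2 members had an unadjusted p under 0.05. That limma fit gave an adjusted p of 0.423 for *Maf* and 0.579 for *Mef2c*. With edgeR 446 genes were called. DESeq2 called 246 genes and 4 relatives and partners, against 421 and 7 by limma. Leaving out each library in turn gave 236 to 377 genes, 1 to 2 members, 3 to 6 relatives and partners, 2 to 4 PU.1 targets and 2 to 3 MAF family targets. The genes were fewest, 236, without WT replicate 2 and 244 without Rxra-KO replicate 1. The main fit had no filter on low values, so the alternative without one was the same fit and tested nothing. With the filter at a mean value of at least 10, 10049 genes were kept and 384 were called. Titles give both groups numbers 1 and 2, but nothing says that a number marks a shared mouse or day, and deviations of same-numbered libraries correlated at 0.063 over 10049 genes. A replicate block gave 540 genes, 2 members, 9 relatives and partners, 6 PU.1 targets and 4 MAF family targets. Depth limits *Cebpa*, *Cebpb*, *Bhlhe40* and *Spi1*, which had a mean of 9.75 to 30.0 reads.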
